A study of Homo sapiens with 24 samples.

Results

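The genes that build the constitutive proteasome were followed in HepG2 cells, an established human hepatoma line, after 10 h of treatment with a proteasome inhibitor and with drugs that act on the eIF2α-ATF4 pathway. They were taken from the count table by gene name. Every PSMA, PSMB, PSMC, PSMD, PSMF or PSMG symbol that ends in a number was included, together with PSME3, PSME4, POMP, ADRM1 and SHFM1, and the immunoproteasome subunits (PSMB8, PSMB9, PSMB10 and PSMB11) and antisense genes were left out. This gave 45 of the 18915 genes in the table, of which 8 encode the α ring, 7 the β ring, 10 the base, 9 the lid, 3 activators or an inhibitor, and 8 assembly factors. PSMA8, an α ring subunit known from testis, had 1 read in a single nelfinavir library and none in the other libraries, and was not tested. The other 44 genes passed the expression filter.

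Single treatments and a vehicle control (DMSO) were used, with bortezomib at 50 nM, nelfinavir at 20 µM and ISRIB at 50 nM, and bortezomib was also combined with either of the other drugs at these doses, all for 10 h. Each of the 6 groups had 4 libraries, made with a 3′ mRNA-Seq kit in which reads start near the poly(A) tail. Bortezomib blocks the proteasome, nelfinavir is a protease inhibitor of HIV that also induces ATF4, and ISRIB relieves the block on translation that phosphorylated eIF2α imposes. The question for these genes was whether each class of the complex responds to bortezomib, and whether that response differs when the eIF2α-ATF4 pathway is pushed up or down.

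As background, the proteasome degrades proteins that carry ubiquitin chains. Its core particle is a barrel of α rings, which form the gate, and β rings, which hold the proteolytic sites, and it is capped by a regulatory particle whose base unfolds substrates with ATPases and whose lid removes ubiquitin. When proteasome activity drops, the transcription factor NRF1 (NFE2L1) escapes degradation, is processed by the protease DDI2 and raises transcription of proteasome subunit genes through antioxidant response elements, a feedback known as the bounce-back response.

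Total counts on genes ran from 5154533 to 6943164 per library. The levels below are CPM, counts scaled to a common library size with TMM factors, and differences are log2 fold changes from edgeR's quasi-likelihood test, called at a Benjamini-Hochberg adjusted p under 0.05 over the 12685 genes tested. All 9 hepatocyte markers looked at were tested, with ALB at 3323 ± 167 CPM and AFP at 3014 ± 290 CPM in DMSO (SD, n = 4). No marker of fibroblasts (4 looked at) or endothelium (3 looked at) and 1 of 3 blood markers passed the filter. Among these, COL1A2, DCN, PECAM1, VWF, CDH5, PTPRC and CD3E were absent from the count table, so the filter did not act on them. Mitochondrially encoded genes took 21.5% ± 1.32 of the counts in DMSO and 33.8% ± 1.20 in bortezomib (SD, n = 4), which moved with the results below. The labels call the libraries biological replicates without saying that they came from separate cultures, so p-values measure the spread between these libraries only. In bulk libraries, fewer cells and less RNA per cell cannot be told apart.

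Some members share sequence with other genes. Within the last 500 bases of their transcripts, PSMA6, PSMC1, PSMC6, PSMD4 and SHFM1 align to another locus over at least 80 bases at 97% identity or more, for the first 4 a processed pseudogene or a gene derived from one. A gene on the opposite strand covers the 3′ end of PSMA3, PSMC1, PSMC2, ADRM1, PSMD6, PSMD7 and PSMG4, and although the kit is a forward-strand (FWD) one, no strand setting of the counting was found, so reads of the pairs cannot be told apart. Other gene models on the same strand reach over the 3′ ends of PSMA1, PSMA2, PSMF1 and PSMD9, and a further model shares the last bases of a PSMA6 transcript. Values for these members are uncertain to that extent.

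Bortezomib raised the subunits of the complex and not its assembly factors as a class. Of the 44 genes tested, 38 rose and 1, the assembly chaperone PSMG4, fell, against a background of 53.4% of all genes called, 27.6% higher and 25.8% lower. A change over 2-fold upward was called for 19 members, against 10.3% of all genes. The median log2 fold change of the members was 0.86, beside 0.002 over all genes tested, and no member was over 2-fold lower. In 37 members all 4 bortezomib libraries lay above all 4 DMSO libraries, which held for 25.6% of all genes, and in PSMG4 all lay below, which held for 24.4%. Every α ring (7 of 7), β ring (7 of 7) and base (10 of 10) subunit, 8 of 9 lid subunits and 3 of 3 activators or inhibitors were called higher, whereas among the assembly factors 3 of 8 rose, 1 fell and 4 were not called. Removing the mitochondrially encoded genes left the counts at 38 higher and 1 lower.

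The size of these changes depends on the scaling. With library totals alone in place of TMM factors, the median over all genes moved to -0.50 and that of the members to 0.36. Under that scaling 26 members were called higher and 6 lower, and the shares of all genes above, taken with TMM factors, do not apply. The members' median thus stood about as far above that of all genes under either scaling. By the share of all counts, with no scaling, the members took 0.715% ± 0.0208 in DMSO and 1.12% ± 0.0498 in bortezomib (SD, n = 4).

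Summed over the 44 members, the level was 5919 ± 102 CPM in DMSO, 6317 ± 117 in ISRIB, 5802 ± 49.4 in nelfinavir, 13050 ± 679 in bortezomib, 11770 ± 269 in bortezomib+nelfinavir and 11610 ± 396 in bortezomib+ISRIB (SD, n = 4 each). The lowest bortezomib library held 12610 CPM and the highest DMSO library 6027 CPM. The co-treated libraries lay between these, with a maximum of 11950 CPM in both groups, below every bortezomib library and above every library without bortezomib.

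The plot of class medians shows how far the classes differed. In each bortezomib library the lid had the largest median difference from DMSO, between 1.48 and 1.52 log2 units, and the assembly factors the smallest, between -0.13 and 0.02. The base lay between 1.01 and 1.09, the β ring between 0.89 and 1.23, the α ring between 0.68 and 0.84 and the activators and inhibitor between 0.35 and 0.60. Base and β ring overlapped, while the ranges of lid, α ring and assembly factors did not overlap with one another. These are descriptions of 3 to 10 genes each, and the difference between classes was not tested.

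**Figure D1:**
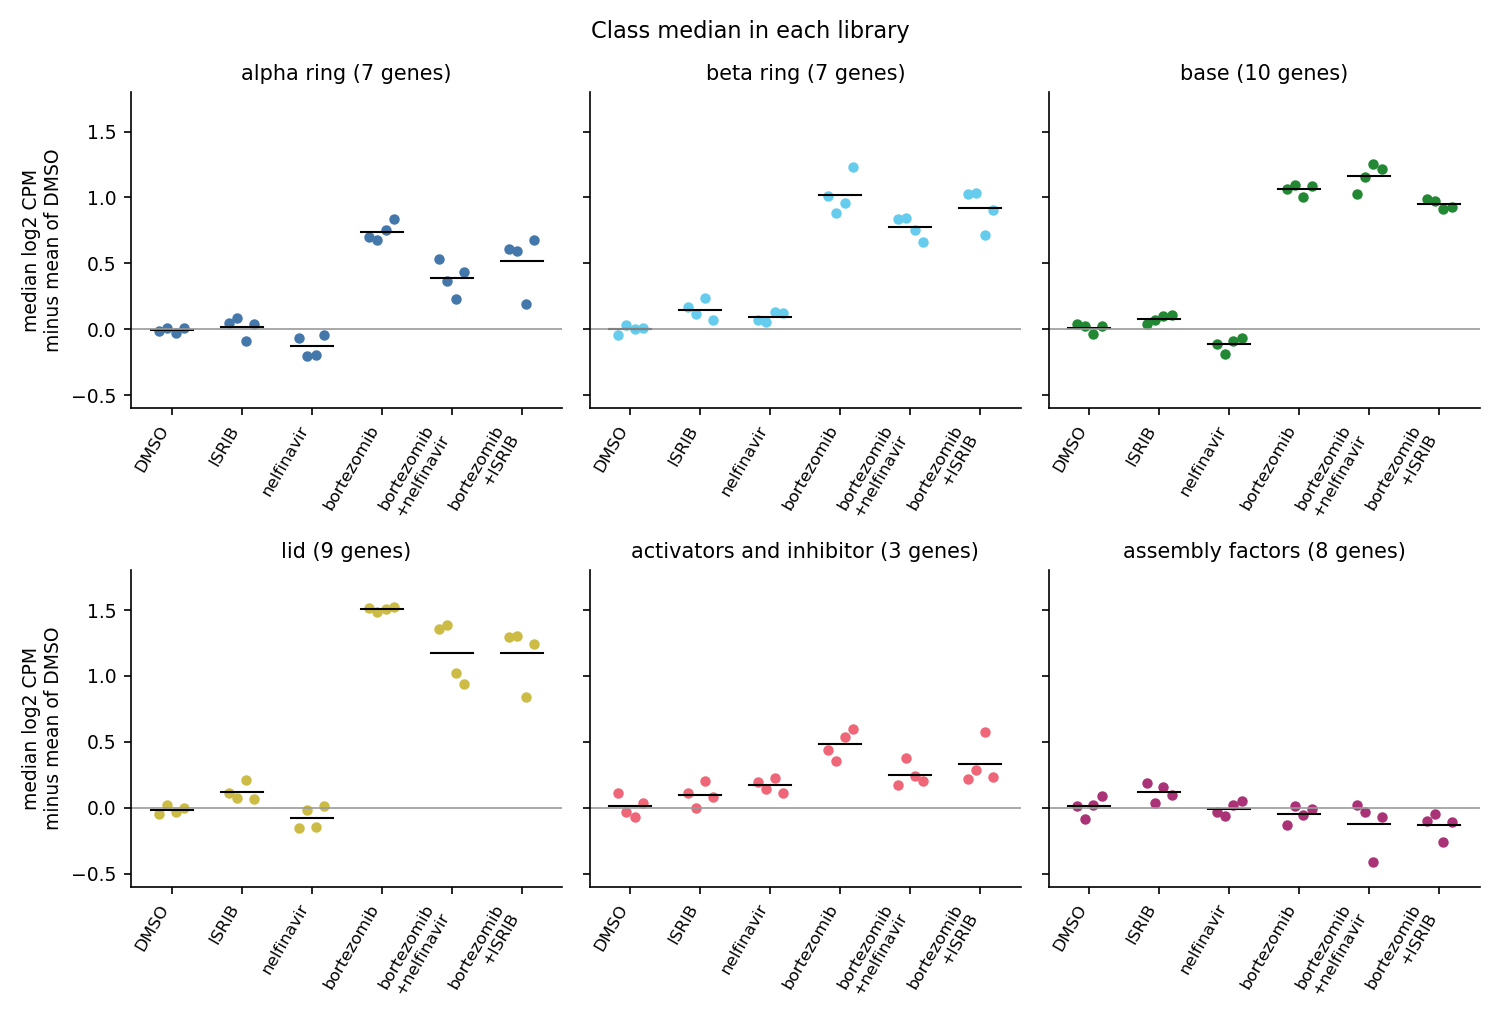
Median of each class in each library, as log2 CPM minus the mean of the DMSO libraries (vertical axis), over the 6 groups (horizontal axis); points are libraries and black lines are means of 4. The lid is highest in the bortezomib libraries (1.48 to 1.52), the assembly factors lie between -0.13 and 0.02 in bortezomib and between -0.41 and 0.03 in bortezomib+nelfinavir, and the α ring lies between 0.68 and 0.84 and between 0.23 and 0.53. With library totals in place of TMM factors all medians of the bortezomib groups are lower.

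Because the members moved together, their promoters were searched for the letters of the elements named above. RefSeq windows of 300 bases (250 before to 50 after the gene's start, GRCh38.p14) were found for 39 of the 45 members, and those of PSMA7, PSMB1, PSMB6, PSMB7, PSMD4 and PSMG3 were not in the table. The letters TGACNNNGC, the core of the antioxidant response element, were searched on both strands, where the reverse match reads GCNNNGTCA. They occurred in 11 of 39 members (28.2%), against 13.3% of all 35116 RefSeq promoters and 14.8% of the 13014 promoters of genes tested. By class they were in 0 of 7 α ring, 1 of 4 β ring, 3 of 9 base, 2 of 9 lid, 1 of 3 activator or inhibitor and 4 of 7 assembly factor windows. The runs below show the match in capitals on the gene's own strand, 5′ to 3′, for each of the 11 members, to set the letters beside the response.

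PSMC4: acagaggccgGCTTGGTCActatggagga
PSMB3: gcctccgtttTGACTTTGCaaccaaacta
ADRM1: cgctcccctaTGACACAGCaacaataggg
PSMD3: tcccctttgtTGACTCGGCcatcggcctg
PSMD12: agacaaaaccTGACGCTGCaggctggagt
PSMD1: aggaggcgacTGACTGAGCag
PSME4: cccggcggctGCAGCGTCAccagcagagc
PSMD9: cggcttccggTGACCCAGCtccgccctaa
PSMG1: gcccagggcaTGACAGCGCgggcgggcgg
PSMG2: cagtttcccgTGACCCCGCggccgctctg
PSMD5: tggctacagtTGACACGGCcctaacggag

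On GRCh38.p14 these runs are chr19:39971182-39971210 for PSMC4, chr17:38752627-38752655 for PSMB3, chr20:62302749-62302777 for ADRM1, chr17:39980760-39980788 for PSMD3, chr2:231056896-231056916 for PSMD1, chr18:12658689-12658717 for PSMG2 and chr12:121888678-121888706 for PSMD9 on the plus strand. The runs of PSMD12 (chr17:67366724-67366752), PSME4 (chr2:53971009-53971037), PSMG1 (chr21:39183616-39183644) and PSMD5 (chr9:120843038-120843066) are on the minus strand. The match starts 28 bases after the gene's start in PSMC4 and 40 in PSMD1, and 104 bases before it in PSMB3, 137 in ADRM1, 37 in PSMD3, 39 in PSMG2, 165 in PSMD12, 34 in PSME4, 102 in PSMD9, 183 in PSMG1 and 134 in PSMD5. PSMD3 and PSMD9 held a further match each, which is not shown.

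Few members did not rise, so the letters can hardly be set against the calls, and no test was made. Among the 38 tested members with a window, the 11 with a match had a median log2 fold change in bortezomib of 1.02 (range -0.20 to 2.01, 9 called higher), and the 27 without had 0.84 (range -0.65 to 1.86, 24 called higher). Of the other letters searched, TGAGTCA (an AP-1 site, which can share bases with the reverse of the first motif) was in 1 of 39 windows, that of PSMD9, against 4.95% of all promoters. GAANNTTC (inverted heat shock units) was in 0 of 39 against 6.77%, and TGATGNAA (the C/EBP-ATF composite element) in 1 of 39, that of PSMF1, against 3.62%. In the promoters of genes tested the shares of these 3 motifs were 3.41%, 4.93% and 2%, beside 2.56%, 0% and 2.56% of the members. A match is a description of the letters in these windows only.

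The proteolytic subunits of the β ring are PSMB5 (chymotrypsin-like activity, the main target of bortezomib), PSMB6 (caspase-like) and PSMB7 (trypsin-like), located on GRCh37 at chr14:23485752-23504439, chr17:4699439-4701797 and chr9:127115744-127177723. PSMB5 stood at 169, 173, 183 and 192 CPM in the DMSO libraries and at 284, 300.2, 288 and 306 CPM with bortezomib. PSMB6 stood at 157, 143, 145 and 142 CPM in DMSO and at 213, 238, 237 and 252 CPM with bortezomib, and PSMB7 at 155, 164, 161 and 161 CPM and at 318, 296, 295 and 376 CPM. All bortezomib libraries were above all DMSO libraries for the 3 genes. PSMB7 rose 2.01-fold (log2 1.00 ± 0.10 SE, adjusted p = 5.74e-10), PSMB5 1.65-fold (log2 0.72 ± 0.08, adjusted p = 1.54e-09) and PSMB6 1.60-fold (log2 0.68 ± 0.10, adjusted p = 5.13e-07). PSMB6 was not called with library totals alone (log2 0.18, adjusted p = 0.143).

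The largest change of all members was that of PSMB1, a structural β subunit without a proteolytic site (chr6:170844208-170862395). It went from 275, 313, 251 and 269.5 CPM in DMSO to 1545, 1577, 1708 and 1808 CPM with bortezomib. The lowest bortezomib library was several times above the highest DMSO library, and the rise was 5.99-fold (log2 2.58 ± 0.10, adjusted p = 2.16e-20). The other structural β subunits rose by log2 1.68 (PSMB2), 1.21 (PSMB4) and 0.96 (PSMB3), so that 4 of 7 β ring genes were over 2-fold higher. The inducible counterparts of the proteolytic subunits went the other way. PSMB8 was at 14.3 ± 1.36 CPM in DMSO and 6.16 ± 1.83 with bortezomib, and PSMB9 at 3.19 ± 0.986 and 0.570 ± 0.526 (SD, n = 4). PSMB9 rests on 100 reads in all DMSO libraries and 11 in all bortezomib libraries, and PSMB10 was too low to test. The activator subunits PSME1 (log2 -0.31, adjusted p = 0.00391) and PSME2 (log2 -0.84, adjusted p = 1.74e-08) fell as well. Thus 4 of 4 tested genes of that list were lower, against 25.8% of all genes.

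In the α ring the changes were smaller, and 2 of 7 genes passed 2-fold. PSMA6 had the largest value (log2 1.83 ± 0.38, adjusted p = 1.20e-04), from 4.07, 5.21, 2.52 and 3.80 CPM in DMSO to 11.3, 13.96, 20.5 and 10.2 CPM with bortezomib. These levels rest on 18 to 40 reads per DMSO library and 47 to 97 per bortezomib library, and PSMA6 is one of the members with near-identical pseudogene copies. PSMA1 followed at log2 1.07, then PSMA5 at 0.84, PSMA7 at 0.75, PSMA3 at 0.52 and PSMA2 at 0.48. PSMA4 had the smallest value, from 233, 222, 220.0 and 227 CPM to 275, 289, 304 and 338 CPM (log2 0.42 ± 0.08, adjusted p = 6.35e-05), still without overlap between the groups. With library totals alone PSMA2 and PSMA4 turned to -0.02 and -0.08 and were not called, nor were PSMA3 and PSMA5. PSMA3 was also not called without bortezomib replicate 4 (log2 0.41, adjusted p = 0.0671).

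The base holds the ATPases PSMC1 to PSMC6, the scaffolds PSMD1 and PSMD2 and the ubiquitin receptors PSMD4 and ADRM1. PSMC4 (chr19:40477072-40487671) rose most, from 254, 259, 214 and 263 CPM in DMSO to 958, 953, 966 and 1110.0 CPM with bortezomib (4.03-fold, log2 2.01 ± 0.09, adjusted p = 1.59e-19). It stood apart from the other ATPases, which rose by log2 1.11 (PSMC6), 0.98 (PSMC1), 0.88 (PSMC2), 0.81 (PSMC3) and 0.56 (PSMC5). The scaffolds rose by 1.46 (PSMD2) and 1.24 (PSMD1). Of the receptors, ADRM1 rose by 1.37 and PSMD4 by 0.61. PSMC5, with the smallest value, went from 126, 137, 149 and 143 CPM to 192, 194, 185 and 248 CPM (adjusted p = 5.81e-05), and neither it nor PSMD4 was called with library totals alone (log2 0.06 and 0.11).

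The lid had the highest class median (log2 1.54), and 7 of 9 genes were over 2-fold higher. PSMD14, the deubiquitinase that cuts ubiquitin chains from substrates (chr2:162164936-162268228), went from 109, 117, 112 and 109 CPM to 402, 423, 377 and 421 CPM (3.63-fold, log2 1.86 ± 0.07, adjusted p = 1.97e-20). The structural lid subunits PSMD6, PSMD13, PSMD12, PSMD11 and PSMD3 followed at log2 1.78, 1.68, 1.67, 1.54 and 1.37, and PSMD8 and PSMD7 at 1.02 and 0.74. The exception was SHFM1 (also named SEM1), the small acidic subunit that ties lid subunits together. SHFM1 stood at 165, 190, 203 and 212 CPM in DMSO and at 203, 168, 198 and 218 CPM with bortezomib. The groups overlapped, and the 95% interval of the log2 fold change ran from -0.31 to 0.37 (adjusted p = 0.888), below the value of every other lid subunit. With library totals alone SHFM1 was called lower (log2 -0.47, adjusted p = 0.0118).

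**Figure D2:**
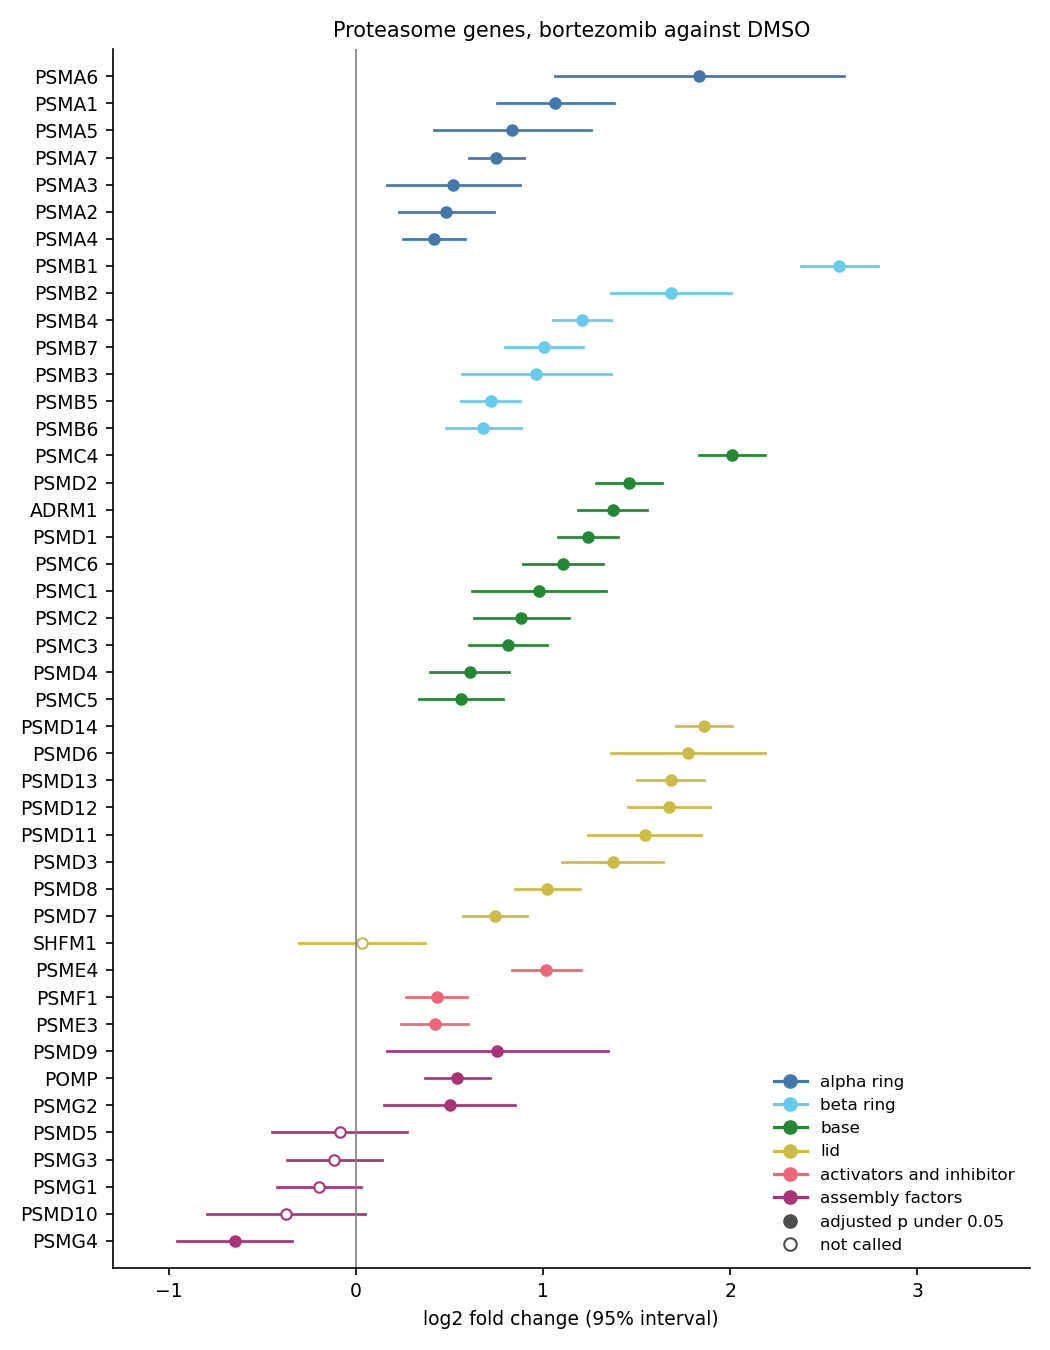
Log2 fold change of each of the 44 members in bortezomib against DMSO (horizontal axis, with 95% intervals), grouped by class and ordered within it (vertical axis); filled points were called at an adjusted p under 0.05. PSMB1 (2.58), PSMC4 (2.01) and PSMD14 (1.86) head their classes, SHFM1 lies at 0.03, and 5 of 8 assembly factors lie below 0. With library totals in place of TMM factors the values are lower, and PSMA2, PSMA4, SHFM1, PSME3 and PSMF1 fall below 0.

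Of the proteins that bind the ends of the core particle, PSME4, a nuclear activator, went from 129, 116, 111 and 123 CPM to 250.4, 257, 232 and 232 CPM with bortezomib (2.03-fold, log2 1.02 ± 0.09, adjusted p = 2.43e-11). PSME3, the subunit of another nuclear activator, went from 133, 123, 117 and 120 CPM to 167, 157, 153 and 183 CPM (log2 0.42 ± 0.09, adjusted p = 1.57e-04). PSMF1, known as an inhibitor of the core particle in vitro, rose by log2 0.43. No library of these 3 genes overlapped between the groups. PSME3 and PSMF1 turned to -0.08 and -0.07 with library totals alone and were then not called.

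The assembly factors had a median log2 fold change of -0.10. POMP, which is built into the maturing core particle and degraded with its completion, rose by log2 0.54 ± 0.09 (adjusted p = 2.34e-06), from 197, 214, 220.4 and 228 CPM to 280.0, 307, 315 and 349 CPM. PSMG2, a chaperone of α ring assembly, rose by 0.50 (adjusted p = 0.0146), and its partner PSMG1 did not pass (log2 -0.20, adjusted p = 0.135). The other chaperone pair was lower or not called. PSMG4 (chr6:3231637-3303607) went from 41.4, 34.4, 32.6 and 43.4 CPM to 21.4, 22.1, 22.2 and 31.3 CPM, with every bortezomib library below every DMSO library (1.57-fold lower, log2 -0.65 ± 0.15, adjusted p = 5.17e-04), while PSMG3 was not called (log2 -0.12, adjusted p = 0.456). Among the base chaperones PSMD5 and PSMD10 were not called (log2 -0.09 and -0.38), and PSMD9 was, on few reads. PSMD9 stood at 3.95, 3.12, 2.10 and 3.31 CPM in DMSO and at 3.64, 5.43, 5.91 and 6.27 CPM with bortezomib (log2 0.76 ± 0.29, adjusted p = 0.0280), the groups overlapped, and without bortezomib replicate 2, 3 or 4 or without DMSO replicate 2 or 3 its adjusted p was 0.0649, 0.0806, 0.0960, 0.0507 or 0.0979. PSMG2 was likewise not called without bortezomib replicate 1 (adjusted p = 0.0875). With library totals alone POMP, PSMG2 and PSMD9 were not called and PSMG1, PSMG3, PSMD5 and PSMD10 were called lower (log2 -0.70, -0.61, -0.59 and -0.87).

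Genes that work with the proteasome also moved with bortezomib. Of 13 tested proteasome-associated and shuttle factors 8 rose and 2 fell, against 27.6% of all genes higher and 25.8% lower. The 6 over 2-fold higher were ZFAND5 (log2 1.85), UBQLN1 (1.45), TXNL1 (1.401), USP14 (1.36), KIAA0368 (1.26) and UBQLN4 (1.07). UBQLN4 rests on few reads, 111 in all DMSO libraries and 142 in all bortezomib libraries. Its groups overlapped, at 3.187 to 4.165 CPM in DMSO and 3.242 to 12.25 CPM with bortezomib. ZFAND5 and UBQLN1 are ubiquitin-binding proteins that act at the proteasome, and USP14 is a deubiquitinase bound to the base. The 2 that fell, named after their values were seen, were UCHL5, a deubiquitinase that binds ADRM1 (log2 -0.39, adjusted p = 0.00452), and AKIRIN2, a factor for nuclear import of the proteasome (log2 -0.44, adjusted p = 0.0397). In the route that activates NRF1, 7 of 10 genes rose and 1 fell, against the same 27.6% and 25.8%. The small MAF partners of NRF1 rose most (MAFF log2 2.55, MAFK 2.30, MAFG 1.94), NFE2L1 itself rose by 0.72 (adjusted p = 1.59e-07), and DDI2 fell by 1.29 on the log2 scale (adjusted p = 5.29e-11). Of the 9 hepatocyte markers 5 fell, TTR and AFP over 2-fold (log2 -1.49 and -1.26), and the part of this in the proteasome values was not tested. In bortezomib+nelfinavir against bortezomib 7 of the 10 NRF1 route genes were higher and 0 lower (15.6% and 13.4% of all genes). There 3 members were higher and 11 lower. In nelfinavir against DMSO 5 route genes were higher and 0 lower (10.4% and 8.84%), beside 2 members higher and 3 lower. In bortezomib+ISRIB against bortezomib 4 were higher and 0 lower (6.91% and 5.34%), beside 1 member higher and 9 lower. How the route relates to the members was not tested.

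**Figure D3:**
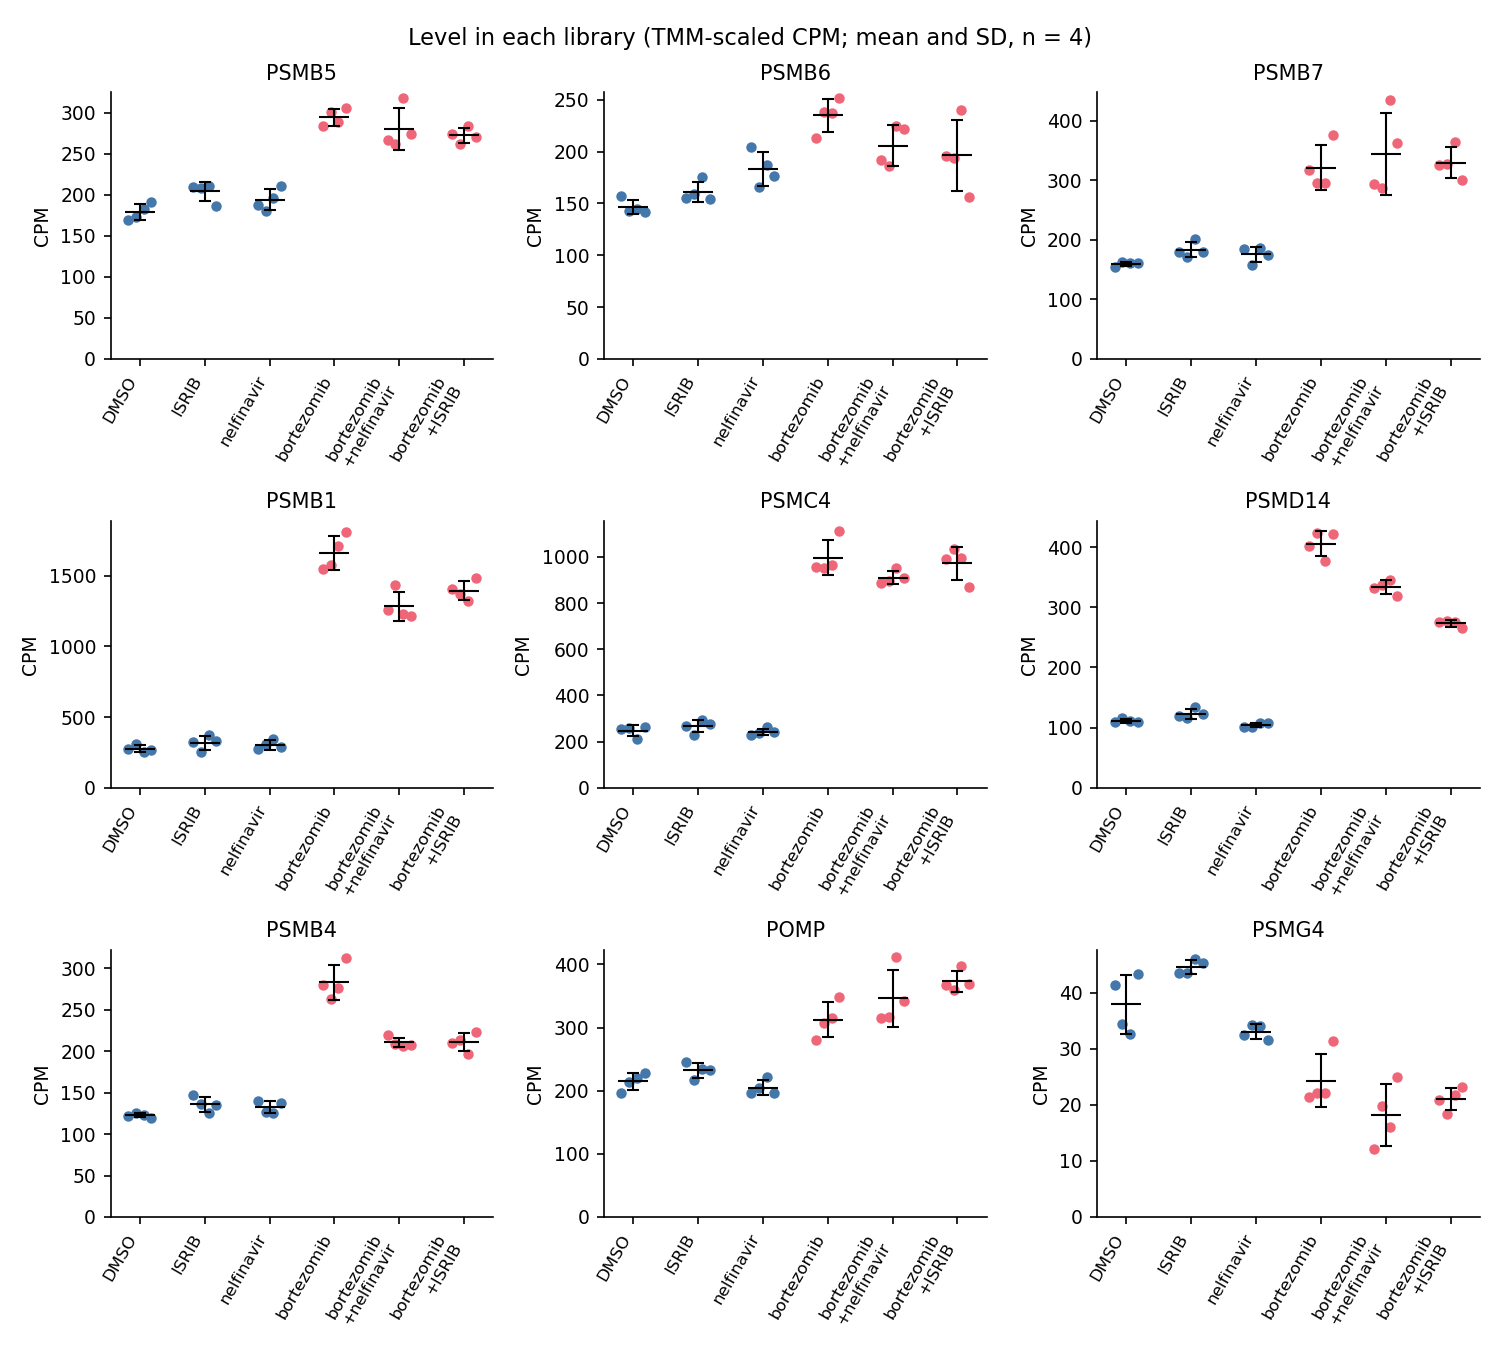
Level of 9 members in each library, in TMM-scaled CPM on linear axes that start at 0, over the 6 groups; points are libraries (red with bortezomib), with the mean and SD of 4. PSMB1 is at 251 to 313 CPM in DMSO and 1545 to 1808 with bortezomib, PSMD14 and PSMB4 drop from bortezomib to both co-treatments, and PSMG4 is lowest in the bortezomib groups.

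ISRIB alone changed none of the members by the test. In ISRIB against DMSO 0 of 44 members and 0% of all genes were called, and DESeq2 called 0 members. At an unadjusted p under 0.05 were 4 members (PSMF1, PSMB5, ADRM1 and PSMB1), against 5.54% of all genes, with differences of log2 0.20, 0.19, 0.21 and 0.21. The log2 fold changes of the members ran from -0.21 to 0.37 with a median of 0.10, beside 0.004 for all genes, and 35 of 44 were above 0. PSMB5 stood at 209.9, 209, 211 and 187 CPM in the ISRIB libraries, 3 of which were above every DMSO library.

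Nelfinavir alone changed few members and none by 2-fold. It changed 5 of 44 members, 2 higher and 3 lower, against 19.2% of all genes, 10.4% higher and 8.84% lower, and the median of the members was -0.07 beside 0.007 for all genes. The lid subunit PSMD12 fell most (log2 -0.65 ± 0.11, 1.57-fold, adjusted p = 3.30e-05), followed by PSMA2 (-0.44, adjusted p = 0.0123) and the scaffold PSMD1 (-0.28, adjusted p = 0.00859). The lid subunit PSMD8 (0.31, adjusted p = 0.00852) and the proteolytic PSMB6 (0.32, adjusted p = 0.0163) rose. PSMB6 stood at 204, 166, 187 and 176 CPM with nelfinavir, above every DMSO library. Without nelfinavir replicate 1 PSMB6 was not called (adjusted p = 0.0766). Fitted on these 2 groups only, 10 members were called, 3 higher and 7 lower.

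Bortezomib was also compared with its absence in cells that received either drug, with control libraries other than DMSO. In bortezomib+nelfinavir against nelfinavir 31 members rose and 3 fell (57.1% of all genes called, 28.7% higher and 28.4% lower), with a median log2 fold change of 0.68. In bortezomib+ISRIB against ISRIB 34 rose and 2 fell (54.7% of all genes called, 29.1% higher and 25.6% lower), with a median of 0.62. With library totals alone the calls were 19 higher and 10 lower, and 18 higher and 11 lower, respectively. The shares of all genes given here are those with TMM factors, so they cannot be set beside these counts. PSMB1 rose by log2 2.07 ± 0.10 and 2.12 ± 0.10 in these comparisons and PSMC4 by 1.90 ± 0.09 and 1.86 ± 0.09. PSMD14 rose by 1.68 ± 0.07 in the presence of nelfinavir and 1.15 ± 0.07 in that of ISRIB. PSMG4 fell in both, by 0.85 and 1.08 on the log2 scale, and in that of ISRIB PSMG1 fell by 0.62 (adjusted p = 1.86e-05).

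When nelfinavir was added to bortezomib, members of the core particle were called lower, but for several of them the change lay in 2 of the 4 libraries. In bortezomib+nelfinavir against bortezomib 3 members were higher and 11 lower, against 28.9% of all genes called, 15.6% higher and 13.4% lower. The mitochondrial share was 27.2% ± 2.26 in bortezomib+nelfinavir against 33.8% ± 1.20 in bortezomib (SD, n = 4), and with those genes removed 15 members were called, 3 higher and 12 lower. Of the 9 hepatocyte markers 7 were lower in this comparison (median log2 -0.36), and the part of this in the members' values was not tested. Among the 14 core genes 7 were lower, PSMA5 at log2 -0.79 ± 0.21, PSMB2 at -0.65 ± 0.15, PSMB3 at -0.55, PSMA3 at -0.47, PSMB4 at -0.43, PSMB1 at -0.37 and PSMA7 at -0.33. With all libraries, none of the 10 base genes was called lower, and PSMC1 (0.53 ± 0.17, adjusted p = 0.0198) and ADRM1 (0.27 ± 0.09, adjusted p = 0.0223) were higher. The 3 proteolytic subunits were not called, with 95% intervals of the log2 difference from -0.23 to 0.08 for PSMB5, -0.39 to 0.01 for PSMB6 and -0.10 to 0.31 for PSMB7. The median over the members was -0.17.

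The bortezomib+nelfinavir libraries split for some of these genes. PSMA5 stood at 67.9, 59.95, 24.95 and 34.2 CPM (bortezomib 73.7 to 88.9), PSMB2 at 248, 252, 133 and 152 CPM (bortezomib 286 to 338), PSMB3 at 88.8, 108, 50.9 and 53.3 CPM (bortezomib 101 to 114) and PSMA3 at 186, 166, 88.6 and 92.2 CPM (bortezomib 154 to 209). Replicates 3 and 4 were low for all 4 genes, and replicates 1 and 2 of PSMA3 lay within the bortezomib range. PSMD6 in the lid split in the same way, at 113, 120 and then 54.8 and 60.6 CPM. So did some members not called in this comparison. Among them were PSMD11 (795.6, 853.1, 471.7 and 514.6 CPM), SHFM1 (247.1, 265.5, 139.7 and 140.4 CPM) and PSMA1 (168.7, 177.1, 89.59 and 119.9 CPM). With replicates 3 and 4 left out, a fit chosen after this was seen, PSMA3 (log2 -0.06, adjusted p = 0.828), PSMB3 (-0.15, adjusted p = 0.640), PSMA5 (-0.32, adjusted p = 0.245), PSMB2 (-0.29, adjusted p = 0.136), PSMD6 (-0.18, adjusted p = 0.536) and PSMB1 (-0.29, adjusted p = 0.0622) were not called. In that fit 9 members were called, 1 higher and 8 lower, of which 6 were called the same way with all libraries. PSMB4 (-0.40, adjusted p = 0.00231) and PSMA7 (-0.32, adjusted p = 0.00784) were the 2 core genes among them, and PSMC3 of the base was called lower (-0.33, adjusted p = 0.0338), while PSMC1 (0.26, adjusted p = 0.354) and ADRM1 (0.25, adjusted p = 0.0791) were not called. In bortezomib+ISRIB, replicate 3 was the lowest library for PSMA5, PSMB2, PSMB3, PSMA3 and PSMD6 as well. The same number was also lowest without bortezomib, in ISRIB for PSMA5, PSMB2, PSMA3 and PSMD6 and in nelfinavir for PSMA5, PSMB2, PSMB3 and PSMD6. In the labels, replicate numbers follow the order of the sample numbers in every group but ISRIB. The same number may therefore not mark the same position in the ISRIB group. PSMD6 stood at 28.7 CPM in ISRIB replicate 3 and at 25.2 CPM in nelfinavir replicate 3. In DMSO and in bortezomib alone, replicate 3 was not the lowest for any of these genes. A low replicate 3 thus also occurred without co-treatment. Replicate 4 was the highest library for each of these genes in bortezomib+ISRIB, and in nelfinavir for PSMA5 (49.46 CPM) and PSMB2 (99.05 CPM). In ISRIB replicates 3 and 4 were below replicates 1 and 2 for PSMA5, PSMB2, PSMB3, PSMA3 and PSMD6. The source of the split was not tested.

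The activators of the core particle moved apart in this comparison. PSME4 rose further, to 336, 369, 384 and 346 CPM from 250.4, 257, 232 and 232 CPM with bortezomib alone (log2 0.56 ± 0.09, adjusted p = 1.16e-05). PSME3 fell to 125, 115, 125 and 116 CPM from 167, 157, 153 and 183 CPM (log2 -0.45 ± 0.09, adjusted p = 2.27e-04), a level that overlapped with that of DMSO. In the lid PSMD6, PSMD14 and PSMD13 were lower (log2 -0.61, -0.28 and -0.22). PSMA5, PSMA7, PSMB1, PSMB2, PSMB4, PSMD14, PSME3 and PSME4 were called whichever library was left out. Without bortezomib+nelfinavir replicate 3 the count was 8 (1 higher and 7 lower). That library stood highest of its group for PSMC1 (322 CPM, beside 196 to 242) and lowest for PSMA5, PSMB2, PSMB3, PSMA3 and PSMD6. PSMD13 lost its call in each of the 8 fits that left out 1 library, and PSMA3 and PSMB3 kept theirs in 3 of 8 and PSMD6 in 4 of 8.

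ISRIB added to bortezomib lowered PSMD14, PSMD7 and PSMB4. This comparison shares its 4 bortezomib libraries with the one before, and the library values of PSMB4, PSMC1, PSMD7 and POMP are given here after their values were seen. PSMD14 stood at 275, 277, 276 and 265 CPM, below all bortezomib libraries and above all DMSO libraries (log2 -0.57 ± 0.07, adjusted p = 5.09e-07). PSMD7, a lid subunit that pairs with PSMD14, stood at 196, 196, 185 and 162 CPM against 249, 246, 223 and 290.2 CPM (log2 -0.45 ± 0.09, adjusted p = 3.90e-04). PSMB4 stood at 210.4, 214, 196 and 223 CPM against 280.0, 264, 277 and 313 CPM (log2 -0.43 ± 0.08, adjusted p = 1.70e-04). These 3 genes kept their call in every alternative tried.

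In all, 1 member was higher and 9 were lower in bortezomib+ISRIB against bortezomib, against 12.2% of all genes called, 6.91% higher and 5.34% lower. The other lower genes were PSMG1 (log2 -0.36), PSMD4 (-0.34), PSMD8 (-0.28), ADRM1 (-0.27), PSMF1 (-0.24) and PSMA7 (-0.24), and POMP was higher (0.25, adjusted p = 0.0453), at 367, 359, 397 and 368 CPM. Each of these 7 lost its call when some library was left out, and fitted on the 2 groups only 3 members were called. The proteolytic subunits were again not called (95% intervals -0.27 to 0.05 for PSMB5, -0.46 to -0.06 for PSMB6 and -0.17 to 0.25 for PSMB7, adjusted p = 0.373, 0.0842 and 0.856). With median-of-ratios factors or library totals POMP was not called, and 0 members were higher. The mitochondrial share was 36.1% ± 3.13 in bortezomib+ISRIB against 33.8% ± 1.20 in bortezomib (SD, n = 4), and highest in bortezomib+ISRIB replicate 4 (40.2%). That library was the lowest of its group for PSMD14, PSMD7, PSMD4, PSMD8, ADRM1 and PSMA7, but not for PSMB4, PSMG1 and PSMF1. Of the 9 hepatocyte markers 3 were higher and 2 lower, and the part of either in the members' values was not tested.

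**Figure D4:**
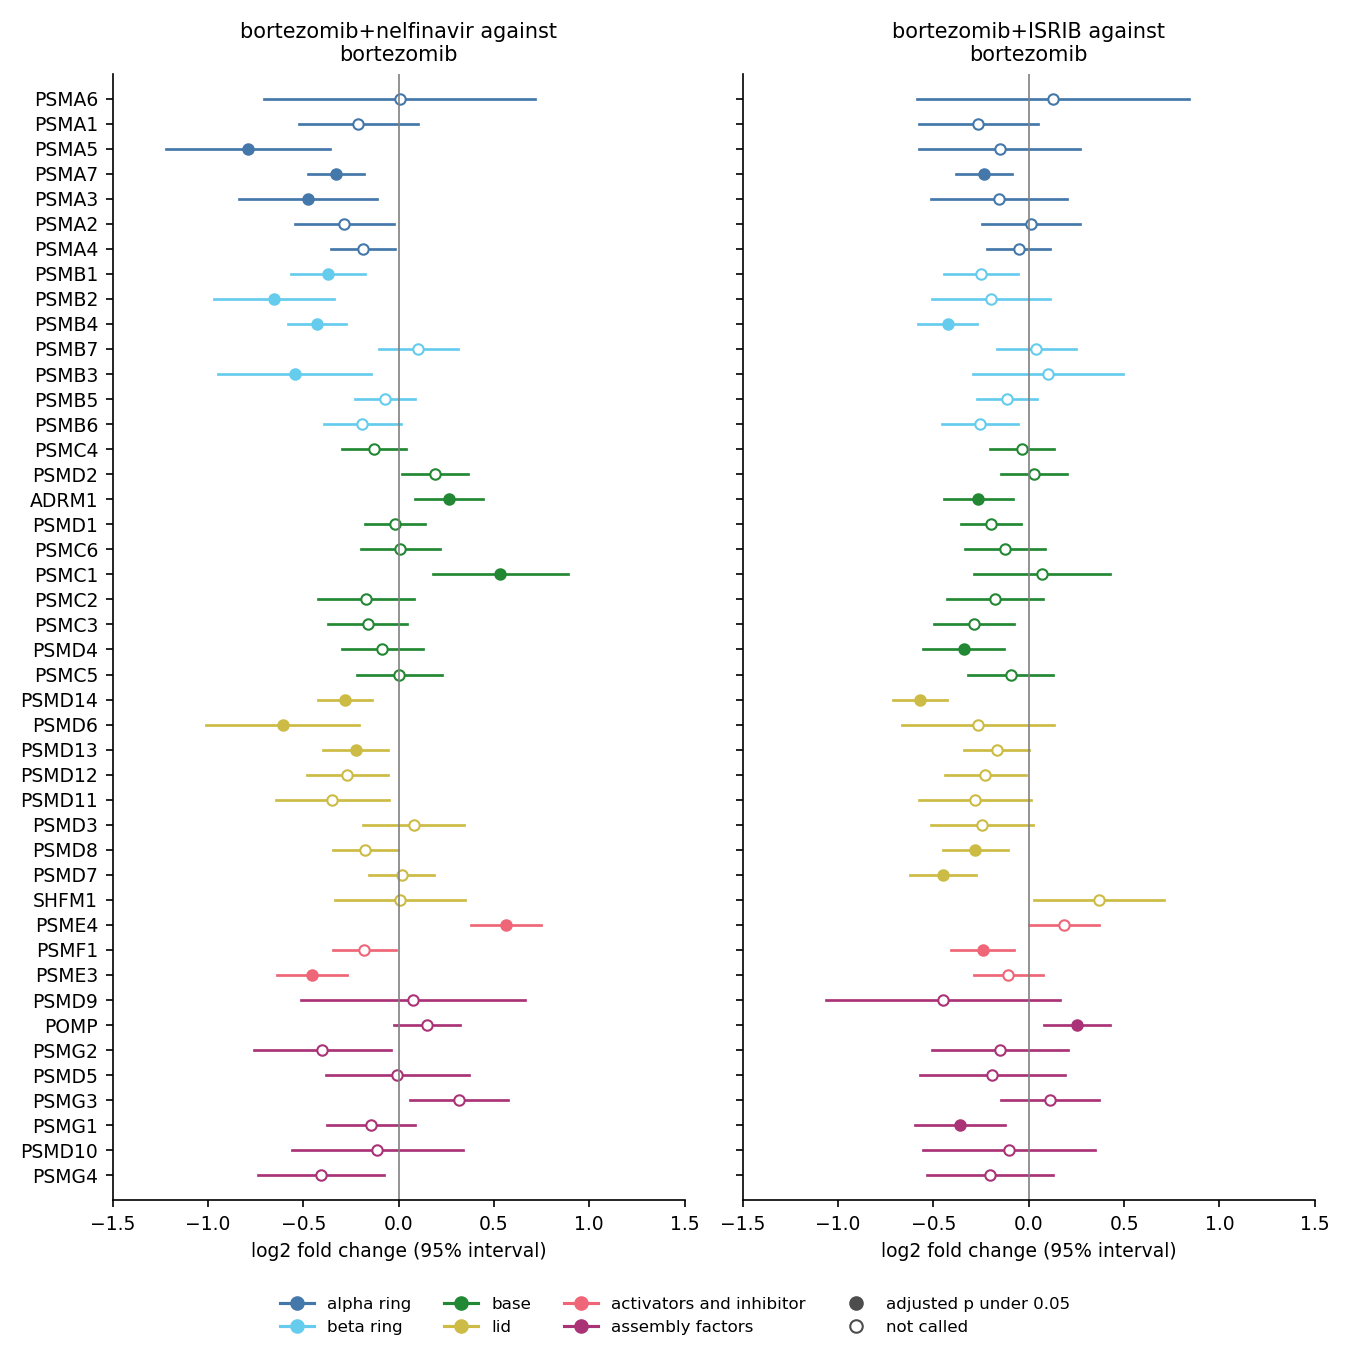
Log2 fold change of the 44 members (horizontal axes, with 95% intervals) in bortezomib+nelfinavir (left) and bortezomib+ISRIB (right), each against the same 4 bortezomib libraries; rows are ordered as in the plot of bortezomib against DMSO and filled points were called at an adjusted p under 0.05. On the left 11 are lower and 3 higher, on the right 9 lower and 1 higher, and PSMD14 lies at -0.28 and -0.57.

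The difference made by a drug with and without bortezomib was tested as an interaction. For nelfinavir 9 members passed, 3 higher and 6 lower, against 19.7% of all genes, 9.74% higher and 10% lower. PSMB4 (log2 -0.54 ± 0.11, adjusted p = 3.53e-04), PSMB6 (-0.51), PSMB1 (-0.51), PSMD8 (-0.48), PSMF1 (-0.35) and PSMA7 (-0.32) were raised less by bortezomib in the presence of nelfinavir. PSMC1 (0.97 ± 0.25, adjusted p = 0.00515), PSMD2 (0.40) and ADRM1 (0.35) were raised more. PSMC1 stood at 75.6, 60.4, 62.6 and 49.7 CPM with nelfinavir and at 196, 198, 322 and 242 CPM with both drugs, beside 168, 180.0, 139 and 175 CPM with bortezomib, and it is one of the members with near-identical copies and an overlapping gene on the other strand. Replicate 3 was highest for PSMC1 with both drugs and also in bortezomib+ISRIB (248.5 CPM, beside 105.2 to 173.2). It was highest in ISRIB too (107.2 CPM, beside 66.22 to 79.12), but not in nelfinavir, bortezomib or DMSO. PSMB6 passed with a rise in nelfinavir alone and no call on co-treatment. PSMA7, PSMF1 and ADRM1 were not called when some single libraries were left out, and the other 6 were called in each such fit. Without bortezomib+nelfinavir replicates 3 and 4 together, PSMD2 was also not called (log2 0.34, adjusted p = 0.0565), and 2 members were higher and 5 lower.

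For ISRIB 7 members passed, all lower, against 4.82% of all genes, 2.93% higher and 1.89% lower. Among these 7, PSMD14 had the largest interaction (log2 -0.71 ± 0.10, adjusted p = 1.71e-05), followed by PSMB4 (-0.58, adjusted p = 7.82e-04), PSMD7 (-0.55, adjusted p = 0.00421), ADRM1 (-0.48), PSMB1 (-0.46), PSMF1 (-0.45) and PSMD8 (-0.42). PSMC4 was not called (log2 -0.15, 95% interval -0.38 to 0.09), and the median over the members was -0.27. PSMB4, PSMD7, PSMD14 and PSMF1 were called whichever library was left out, and without bortezomib replicate 4 or without ISRIB replicate 3 only these 4 were called. DESeq2 called 12 members, all lower.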

How the data were processed

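RNA of HepG2 cells was made into 24 libraries with a 3′ mRNA-Seq kit. Per the labels and the study's methods, the authors trimmed reads with cutadapt 2.8, ran an nf-core RNA-Seq workflow with STAR on hg19 (GRCh37), counted reads against Ensembl genes of the protein-coding, lincRNA and antisense types, and deposited a table of raw counts per gene, with no normalization. The kit was the forward (FWD) version. The counting tool inside the workflow and its strand setting were not found in these sources.

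From these counts, genes with at least 5 counts in enough libraries and 25 in all (edgeR's filterByExpr) were kept, 12685 of 18915. TMM factors were computed and edgeR's quasi-likelihood test (edgeR 4.0.16, limma 3.58.1, R 4.3.3) was fitted to all 24 libraries of the 6 groups in 1 model, with no covariate. It gave 7 pairwise comparisons and 2 interactions (the effect of a drug with bortezomib minus that without), each with p-values adjusted by the Benjamini-Hochberg method over all genes tested. Several comparisons share control libraries. Intervals are at 95%. No 2 libraries of a group agreed within sampling noise (smallest chi-square per degree of freedom 2.14 over 36 pairs). Promoters came from RefSeq, and near copies were found with BLAST 2.17.0+ against an annotation on GRCh37, which placed 44 of the 45 members. Scripts were tested on simulated data.

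The members and gene lists were chosen with earlier results of these data known. Library values are given for the proteolytic subunits, for the members of each class with the largest and smallest change in bortezomib against DMSO, and for members that fell there. Fold changes are given for every member in that comparison and for up to 8 called members with the smallest p in the others, and other called members are named beyond this rule, after their values were seen. Alternatives were median-of-ratios factors, library totals, removal of mitochondrially encoded genes, no filter, the default filter, a replicate block, fits on the groups compared only, DESeq2 1.42.0, leaving out each library, and, added after seeing the data, leaving out bortezomib+nelfinavir replicates 3 and 4.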

Additional observations from a re-analysis of the deposited data

Results flagged for a closer look

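In 9 of the 84 sets of 4 libraries looked at (14 genes in 6 groups), 1 library stood far from the other 3 by Dixon's criterion, where chance gives about 1 in 20. In bortezomib, 1 library was above the others for PSMG4 (31.34 CPM beside 21.39 to 22.18), PSMC4 (1110 beside 953.4 to 965.7) and PSMC5 (247.9 beside 184.6 to 194.3), and for each it was replicate 4. In ISRIB, 1 library was below the others for PSMB5 (186.9 CPM beside 208.7 to 210.6) and PSMA4 (209.9 beside 239.2 to 244.8). In bortezomib+ISRIB, 1 library was apart for PSMA6 (32 CPM beside 8.795 to 10.86) and PSMD14 (265.1 beside 275.4 to 276.6). The others were PSMA6 in nelfinavir (6.621 CPM beside 3.227 to 3.703) and PSMD9 in bortezomib+nelfinavir (3.143 beside 6.193 to 6.585).

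For 16 values the effect of a drug differed with and without bortezomib by edgeR's test of the interaction. With nelfinavir the log2 differences were -0.316 for PSMA7, -0.51 for PSMB1, -0.544 for PSMB4, -0.514 for PSMB6, -0.48 for PSMD8 and -0.351 for PSMF1. PSMC1, PSMD2 and ADRM1 had 0.97, 0.396 and 0.347. With ISRIB they were -0.463 for PSMB1, -0.575 for PSMB4, -0.479 for ADRM1, -0.548 for PSMD7, -0.421 for PSMD8, -0.711 for PSMD14 and -0.446 for PSMF1. ADRM1 thus differed upward with nelfinavir and downward with ISRIB, and no test compared these values with each other.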

How the results depend on the processing

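With library totals alone the members' median was 0.361 in bortezomib against DMSO, 0.171 in bortezomib+nelfinavir against nelfinavir, 0.075 in bortezomib+ISRIB against ISRIB, -0.25 in bortezomib+ISRIB against bortezomib and -0.314 in the ISRIB interaction, and PSMA2 (-0.015), PSMA4 (-0.084), SHFM1 (-0.465), PSME3 (-0.08) and PSMF1 (-0.069) changed direction in bortezomib against DMSO. In bortezomib+ISRIB against ISRIB the median was 0.557 with median-of-ratios factors and with DESeq2, 0.553 without mitochondrially encoded genes and 0.538 with no filter. Without mitochondrially encoded genes it was 0.631 in bortezomib+nelfinavir against nelfinavir. With no filter it was 0.785 in bortezomib against DMSO and -0.044 in the nelfinavir interaction, and 8 members were called in nelfinavir against DMSO and 6 in bortezomib+ISRIB against bortezomib. Fitted on the groups compared only, these last counts were 10 and 3. DESeq2 called 12 members in the ISRIB interaction. The cause of these shifts was not tested.

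Leaving out each library in turn gave 37 to 39 called members in bortezomib against DMSO (median 0.781 to 0.889), 5 in nelfinavir against DMSO (-0.096 to -0.034), 0 in ISRIB against DMSO (0.088 to 0.11), 8 to 17 in bortezomib+nelfinavir against bortezomib (-0.153 to -0.085), 4 to 8 in bortezomib+ISRIB against bortezomib (-0.226 to -0.138), 32 to 34 in bortezomib+nelfinavir against nelfinavir (0.65 to 0.714), 32 to 34 in bortezomib+ISRIB against ISRIB (0.56 to 0.65), 7 to 11 in the nelfinavir interaction (-0.162 to -0.029) and 4 to 7 in the ISRIB interaction (-0.287 to -0.227). Counts moved by over 1.5 times without bortezomib+nelfinavir replicate 3 (8 against 14). In bortezomib+ISRIB against bortezomib they fell from 10 to 6 without bortezomib+ISRIB replicate 1 or 2 or bortezomib replicate 1, to 5 without bortezomib+ISRIB replicate 4 or bortezomib replicate 2 or 4, and to 4 without bortezomib replicate 3. In the ISRIB interaction they fell from 7 to 4 without bortezomib replicate 4 or ISRIB replicate 3.

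Without bortezomib+nelfinavir replicates 3 and 4 together, a fit added after seeing the data, 9 members were called in bortezomib+nelfinavir against bortezomib (median -0.141), 34 in bortezomib+nelfinavir against nelfinavir (0.634) and 7 in the nelfinavir interaction (-0.042).

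Replicate numbers were not taken to pair the libraries, since not every same-number pair had deviations correlated over 0.1. A bar set on every pair is strict, so missing it does not exclude pairing. Of 60 same-number pairs of libraries 10 did (median 0.013), against 7 of 180 other pairs (median -0.006), and 14 of 24 libraries correlated best, on average, with their own number, a hint from the data. With a replicate block 39, 5, 0, 19, 11, 34, 36, 13 and 8 members were called, in the order above, against 39, 5, 0, 14, 10, 34, 36, 9 and 7 without it. The pairs and the block use the replicate numbers as labelled, which in ISRIB alone do not follow the order of the sample numbers. Members at a few CPM, such as PSMA6 and PSMD9, are limited by depth.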
